A study of Homo sapiens with 4 samples.

Results

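Replication timing was examined at 7 genes that write, maintain or erase DNA methylation: DNMT1, UHRF1, DNMT3A, DNMT3B, TET1, TET2 and TET3. A locus was taken as every 80 kb bin that overlaps the gene or the 200 kb on either side of it, at the hg19 position of the gene. The 7 loci took up 49 of the 27704 bins of the table, and all 49 passed the filter on called cells described below. The rule uses what the genes encode and where they lie, and no measured value, although earlier results of these data were known when they were picked.

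Cytosine methylation at CG sites is copied onto new DNA strands after the replication fork has passed. DNMT1 is the methyltransferase that does this copying, and UHRF1 recognises sites methylated on the old strand alone and recruits DNMT1 to them. DNMT3A and DNMT3B can methylate sites that carry no mark, and the TET enzymes TET1, TET2 and TET3 oxidise methylated cytosine, which begins its removal. Early replication is in general a property of gene-rich, transcribed chromatin, and late replication of gene-poor or silent chromatin.

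The cells came from HCT116, a human colorectal cancer line, and from DKO1, a line derived from it in which DNMT1 and DNMT3B are knocked out. DKO1 is a single derived line, so the knockouts and any other difference between the 2 lines cannot be told apart. The disrupted DNMT1 gene is known to leave some shortened protein, which was not measured here. Neither line received a treatment. Cells were sorted on DNA content into a G1 and 3 S-phase fractions, and the S-phase fractions were pooled in equal numbers, so each line is represented by 1 S-phase library of single cells. Neither G1 library was analysed.

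There were 322 cells of HCT116 and 207 of DKO1, with 0 barcodes in common. Each cell carries 1 state code per bin. Code 2 was read as replicated, code 1 as unreplicated and code 0 as not called, a reading taken from the data, since the table does not define its codes. Across 21 chromosomes the share of code 2 followed gene density, with a Spearman's rho of 0.851 in HCT116 and 0.871 in DKO1. The progress of a cell through S phase is the replicated percent of its calls, over the 27142 bins that had a call in 90% or more of cells in each line. It had a median of 52.7% in HCT116 and 48.8% in DKO1, and ran from 17.3 to 77.6% and from 9.49 to 78.5%. Code 0 took 1.08% of calls in HCT116 and 2.80% in DKO1. With 1 library per line no test between the lines was possible, and all intervals are 95% exact (Clopper-Pearson) or Newcombe intervals that cover the counting error of cells only.

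The promoters of 3 members are printed because DNMT1 and DNMT3B are the genes knocked out in DKO1 and TET2 is the locus whose replication differed most between the lines. Each run holds the 250 bases upstream of a transcription start, read 5′ to 3′ on the strand of the gene, with every CG in capitals, since CG is the site at which these enzymes act. The sequences are those of RefSeq on GRCh38.p14, in which all 7 genes were matched, whereas the bins follow hg19. The DNMT1 run lies at chr19:10194954-10195203 on the minus strand. The DNMT3B run lies at chr20:32779602-32779851 on the plus strand. TET2 has 2 starts in the table, with runs at chr4:105145625-105145874 and chr4:105146626-105146875 on the plus strand.
DNMT1: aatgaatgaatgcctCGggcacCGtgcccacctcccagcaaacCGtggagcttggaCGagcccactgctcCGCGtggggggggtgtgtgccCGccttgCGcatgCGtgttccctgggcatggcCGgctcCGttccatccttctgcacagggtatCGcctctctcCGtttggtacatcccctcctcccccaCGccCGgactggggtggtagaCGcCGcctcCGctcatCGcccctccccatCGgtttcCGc
DNMT3B: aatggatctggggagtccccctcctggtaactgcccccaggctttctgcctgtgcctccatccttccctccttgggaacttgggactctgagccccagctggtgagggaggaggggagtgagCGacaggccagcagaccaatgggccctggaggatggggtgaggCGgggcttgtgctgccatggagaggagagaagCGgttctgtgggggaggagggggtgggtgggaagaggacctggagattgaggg
TET2 start 1: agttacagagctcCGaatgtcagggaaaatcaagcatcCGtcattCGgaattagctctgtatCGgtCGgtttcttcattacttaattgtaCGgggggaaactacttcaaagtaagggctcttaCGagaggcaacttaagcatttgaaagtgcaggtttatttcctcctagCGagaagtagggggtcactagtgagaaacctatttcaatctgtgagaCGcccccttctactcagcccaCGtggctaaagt
TET2 start 2: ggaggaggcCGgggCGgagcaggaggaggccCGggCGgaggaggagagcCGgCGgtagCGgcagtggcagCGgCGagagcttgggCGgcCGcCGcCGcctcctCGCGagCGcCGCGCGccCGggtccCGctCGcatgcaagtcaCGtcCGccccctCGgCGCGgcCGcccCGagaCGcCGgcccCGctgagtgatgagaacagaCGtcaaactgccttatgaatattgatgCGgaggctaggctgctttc

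Among 35116 promoters of the same length the median number of CG sites was 11. The DNMT1 promoter holds 21, a number reached by 30.2% of all promoters. The run upstream of the 1 DNMT3B start listed holds 3, reached by 77.1%. Whether that start is the main start of DNMT3B was not checked, so its count does not describe other starts of the gene. The TET2 starts differ from each other, with 10 CG sites upstream of start 1 (reached by 52.2%) and 34 upstream of start 2 (reached by 6.84%). Of the 18 promoters listed for the 7 genes, 14 have at least the median number. Only CG was searched, which reads the same on both strands. These counts describe sequence, and methylation was not measured in the cells analysed here.

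Of the 7 loci, 6 were early replicating in both lines, while TET2 was of middle timing in HCT116 and later in DKO1. To compare cells at the same progress, cells were sorted into 6 strata of 10 points from 20 to 80% progress, which held 320 HCT116 and 206 DKO1 cells. A locus was called replicated in a cell when more than 50% of its called bins were. The standardised share is the percent of cells with the locus replicated, averaged over the 6 strata with equal weight. It ranged from 96.2 to 99.5% over the 6 early loci in HCT116 and from 92.4 to 99.2% in DKO1, against 49.7% and 26.8% for TET2.

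**Figure D1:**
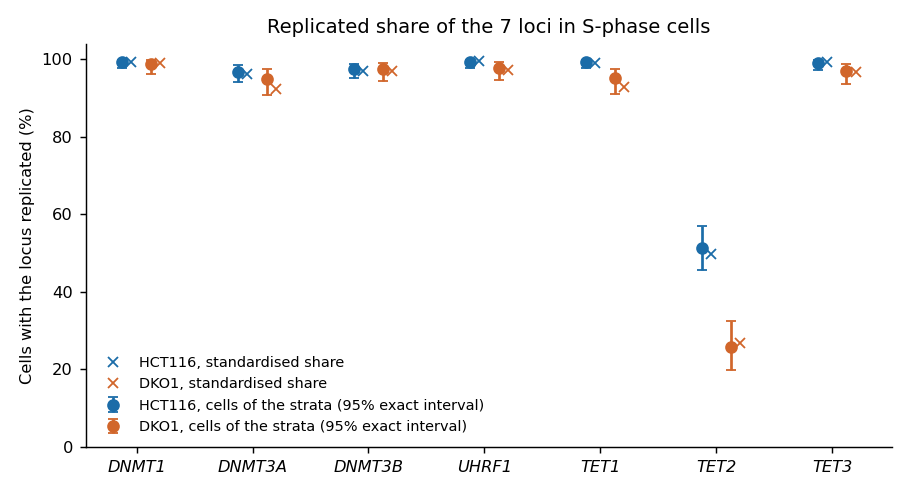
Percent of cells in which each of the 7 loci was replicated, in HCT116 (blue) and DKO1 (orange); filled points are the cells of the 6 strata with 95% exact intervals, and crosses are the standardised shares. TET2 stands apart from the other loci in both lines, at standardised shares of 49.7% and 26.8%, while the other 6 lie at 92.4% or above.

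The maintenance genes, DNMT1 and UHRF1, were replicated in nearly all cells. At DNMT1 (chromosome 19, 10000001 to 10560000, 7 bins, between EIF3G and S1PR2) the locus was replicated in 318 of 320 called HCT116 cells, or 99.4% (97.8 to 99.9%), and in 187 of 189 called DKO1 cells, or 98.9% (96.2 to 99.9%). The standardised shares were 99.4 and 99.2%, a difference of -0.27 points, where a minus sign means lower in DKO1. The interval of the raw difference ran from -3.20 to 1.43 points. At UHRF1 (chromosome 19, 4640001 to 5200000, 7 bins, between ARRDC5 and KDM4B) 318 of 320 HCT116 cells and 189 of 193 DKO1 cells had replicated the locus, and the standardised shares were 99.5 and 97.3%. Their difference was -2.17 points, and the interval of the raw difference ran from -4.64 to 0.760 points. Both loci lie on the gene-dense chromosome 19, whose bins had mean standardised shares of 68.0% in HCT116 and 72.7% in DKO1.

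The de novo methyltransferases were replicated early as well, with slightly lower shares. DNMT3B (chromosome 20, 31120001 to 31600000, 6 bins, between COMMD7 and MAPRE1), the second gene knocked out in DKO1, was replicated in 312 of 320 HCT116 cells, or 97.5% (95.1 to 98.9%), and in 200 of 205 DKO1 cells, or 97.6% (94.4 to 99.2%). Its standardised shares differed by -0.065 points, the smallest difference among the 7 loci. Within the window the share was lowest at the bin farthest along the chromosome (31520001 to 31600000), at 93.0% in HCT116 and 89.2% in DKO1. DNMT3A (chromosome 2, 25200001 to 25840000, 8 bins, between POMC and DTNB), which is not knocked out in DKO1, was replicated in 309 of 319 HCT116 cells, or 96.9% (94.3 to 98.5%), and in 188 of 198 DKO1 cells, or 94.9% (90.9 to 97.6%). Its standardised shares were 96.2 and 92.4%, a difference of -3.85 points, and the interval of the raw difference ran from -6.27 to 1.73 points. DNMT3A had the lowest standardised share of the 6 early loci in each line under this setting, but not under every alternative. With 5-point strata DNMT3B was lower in HCT116 (97.1 against 98.2%), and with code 0 counted as replicated TET1 was lower in DKO1 (90.5 against 92.2%). The 5-point strata held 304 HCT116 cells with DNMT3A called in place of 319, since strata under 5 cells of a line are left out.

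DNMT3A was the only one of the 6 early loci that was unreplicated in any called cell above 70% progress. In HCT116 it was unreplicated in 4 of 82 cells at 60 to 70% progress and in 1 of 19 at 70 to 80%, and in DKO1 in 1 of 36 and 1 of 8. The 10 HCT116 cells without it had a median progress of 52.3%, and the unreplicated run around the gene had a median length of 5.68 Mb in them. The 10 DKO1 cells had a median progress of 46.7% and a median run of 5.96 Mb. In these cells a median of 31.6% of the chromosome 2 bins was replicated in HCT116 and of 27.2% in DKO1. In 3 HCT116 cells and 5 DKO1 cells TET3, on the same chromosome, was unreplicated too. Chromosome 2 departed by more than 15 points from its usual relation to progress in 2 HCT116 and 9 DKO1 cells with DNMT3A called. Without them, a choice made after these values were seen, the shares were 96.7 and 95.8% and the difference was -0.92 points in place of -3.85. The filter reads the chromosome that holds DNMT3A, so cells without the locus are more likely to be left out. A smaller difference may therefore follow from the choice itself. In the cells in which code 0 took no more than 1% of bins (205 HCT116 and 75 DKO1 cells at 30 to 70% progress), the difference was 0.75 points, with the sign turned. Over all cells of those strata it was -1.69 points.

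Of the erasers, TET1 and TET3 were early and TET2 was not. TET3 (chromosome 2, 74080001 to 74560000, 6 bins, between DGUOK and BOLA3) was replicated in 316 of 319 HCT116 cells, a share of 99.1% (97.3 to 99.8%), and in 195 of 201 DKO1 cells, or 97.0% (93.6 to 98.9%). Its standardised shares of 99.2 and 96.8% differed by -2.44 points, and the interval of the raw difference ran from -5.52 to 0.548 points. TET3 was also the most uniform window, with bins of both codes in 1 cell of each line. Its pattern over the 6 strata and both lines was closest to that of UHRF1, with a mean absolute gap of 0.879 points over the 12 values, the smallest among the pairs of loci.

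TET1 (chromosome 10, 70080001 to 70720000, 8 bins, between SLC25A16 and CCAR1) was the early locus with the largest difference between the lines. It was replicated in 316 of 318 HCT116 cells, or 99.4% (97.7 to 99.9%), and in 195 of 205 DKO1 cells, or 95.1% (91.2 to 97.6%). The standardised shares were 98.99 and 92.9%, a difference of -6.12 points. TET1 was the only one of the 6 early loci for which the interval of the raw difference excluded 0, at -8.20 to -1.26 points. The 10 DKO1 cells without TET1 had a median progress of 37.3% (21.4 to 50.2%). The unreplicated run around the gene covered 0.48 to 30.72 Mb in them, with a median of 4.88 Mb. DKO1 cells had replicated TET1 in 8 of 11 cells at 20 to 30% progress, in 37 of 41 at 30 to 40%, in 51 of 53 at 40 to 50% and in 50 of 51 at 50 to 60%, and in all cells above that. HCT116 cells had replicated it in 31 of 33 cells at 20 to 30% and in every called cell above 30%. Where the cells were limited to those in which code 0 took no more than 1% of bins (205 HCT116 and 77 DKO1 cells at 30 to 70% progress), the difference was 0 points, with both lines at 100%. Over all cells of those strata it was -3.87 points.

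In order of standardised share, the HCT116 loci ran from UHRF1 (99.5%) through DNMT1, TET3, TET1, DNMT3B and DNMT3A to TET2. In DKO1 they ran from DNMT1 (99.2%) through UHRF1, DNMT3B, TET3, TET1 and DNMT3A to TET2. The exact intervals of neighbours in this order overlapped in each line except between DNMT3A and TET2, so these shares do not separate neighbours among the 6 early loci. Within single cells, few cells had exactly 1 of a pair of early loci replicated (3 to 18 in HCT116 and 4 to 15 in DKO1). In HCT116 the exact interval left out 50% in 3 of 15 pairs, all with DNMT3A. DNMT3A was the replicated one in 0 of 7 such cells against TET3, in 1 of 10 against UHRF1 and in 2 of 12 against TET1. In DKO1 it left out 50% in 0 of 15 pairs. A fitted curve did not reach 50% within the range of progress seen for any of the 6 in HCT116. In DKO1 it did so for DNMT3B, at 15.1%, and for TET1, at 13.6%, both below 20% progress, where DKO1 has 1 cell.

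Replication of the 6 early loci was largely complete within single cells. Of the cells with all 6 called, 297 of 319 HCT116 cells had replicated every one, or 93.1% (89.7 to 95.6%), and 156 of 180 DKO1 cells, or 86.7% (80.8 to 91.3%). These cells were not matched for progress, whose median over all cells was 52.7% in HCT116 and 48.8% in DKO1. All 6 were called in 319 of 322 HCT116 cells but in 180 of 207 DKO1 cells. A single locus was missing in 17 HCT116 and 11 DKO1 cells, and 2 were missing in 4 and 10. No cell lacked more than 3. One HCT116 cell at 60.1% progress lacked DNMT1, UHRF1 and DNMT3A, and in it chromosome 19 was 0% replicated.

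Across single bins the loci are best read against the rest of the genome. In 7 of the 49 bins the standardised share was at least 10 points lower in DKO1, all of them in the TET2 window, against 14.8% of the 27142 bins used. In 0 of the 49 bins was it at least 10 points higher, against 14.7%. The 42 bins of the 6 early loci held 0 bins past 10 points in either direction, and their differences ran from -7.57 to 3.07 points, with 35 lower and 7 higher in DKO1. Their median difference was -2.32 points, close to the median of -2.25 points over the 5126 bins with a HCT116 share of at least 90%. Of those 5126 bins, 10.8% were at least 10 points lower in DKO1 and 0% were at least 10 points higher, since a share near 100% leaves no room to be higher. The small negative differences of the early loci are therefore near the background of early bins. The median difference over all bins used was 0.0085 points.

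TET2 (chromosome 4, 105840001 to 106400000, 7 bins, between CXXC4 and PPA2) encodes a TET enzyme that is often mutated in blood cancers. It was replicated in 161 of 314 HCT116 cells, or 51.3% (45.6 to 56.9%), and in 51 of 198 DKO1 cells, or 25.8% (19.8 to 32.4%). The standardised shares were 49.7 and 26.8%, a difference of -22.9 points, and the raw difference was -25.5 points with an interval from -33.7 to -16.8. Among all bins used, the median bin of the window stood at the 49.9th percentile of HCT116 shares and at the 32.9th percentile of DKO1 shares. The difference was negative under each of the 13 alternative settings run, from -30.1 to -15.02 points.

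The difference at TET2 was seen over most of S phase. In HCT116 the locus was replicated in 1 of 32 cells at 20 to 30% progress, 10 of 46 at 30 to 40%, 21 of 58 at 40 to 50%, 41 of 77 at 50 to 60%, 69 of 82 at 60 to 70% and 19 of 19 at 70 to 80%. In DKO1 the counts over the same strata were 1 of 10, 2 of 40, 8 of 52, 16 of 50, 20 of 37 and 4 of 9. DKO1 was lower in 5 strata and higher in the first, where 1 cell of each line had replicated the locus. The exact intervals of the lines were separate in the last 2 strata and overlapped in the other 4. At 60 to 70% progress the share was 84.1% (74.4 to 91.3%) in HCT116 and 54.1% (36.9 to 70.5%) in DKO1. A logistic curve of the state of the locus on progress, with progress taken from the other chromosomes, reached 50% at 51.7% progress in HCT116 and at 66.2% in DKO1, 14.5 points later. In the cells in which code 0 took no more than 1% of bins the curve reached 50% at 50.8% progress in HCT116 and at 73.2% in DKO1. Of those 82 DKO1 cells, 77 lay at 30 to 70% progress, so the DKO1 value rests on few cells near it.

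**Figure D2:**
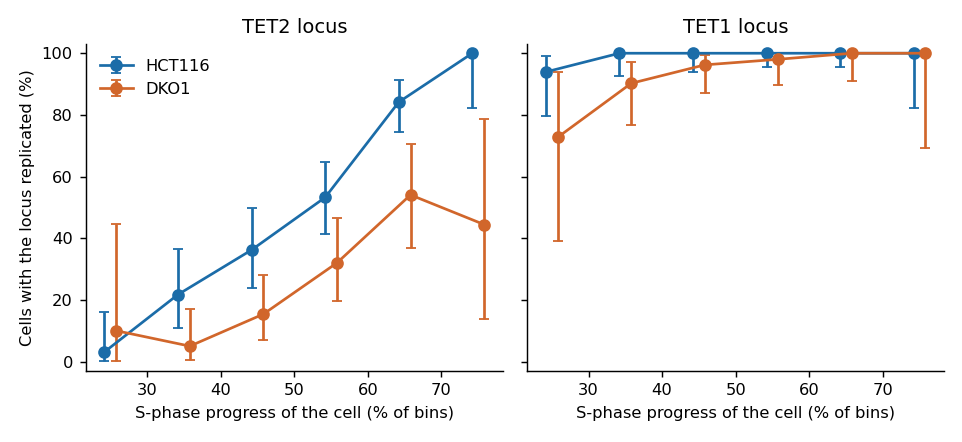
Percent of cells with the TET2 locus (left) and the TET1 locus (right) replicated against S-phase progress. Each 10-point stratum has 1 point per line, drawn at the middle of the stratum with the lines set slightly apart. Bars are 95% exact intervals of the cell counts. At TET2 the DKO1 points lie below the HCT116 points in 5 of 6 strata, and at TET1 the lines differ mainly below 40% progress.

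TET2 lies on the flank of a replication domain, and the share climbed across the window from bin to bin in HCT116 but not in DKO1. From the bin at 105840001 to the bin at 106320001 the HCT116 standardised share was 33.2, 40.9, 46.1, 50.6, 54.2, 55.4 and 56.0%. The DKO1 share over the same bins was 20.2, 27.3, 31.0, 29.4, 28.3, 28.1 and 32.0%. In DKO1 it was thus lower at 106240001 (28.1%) than at 106000001 (31.0%), while in HCT116 it was higher there (55.4 against 46.1%). The gene overlaps 3 of these bins, from 106000001 to 106240000. HCT116 spanned 22.9 points across the window and DKO1 11.8 points, so the gap between the lines widened from -13.0 points at the low-coordinate end to -27.3 points at 106240001 to 106320000.

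The window is part of a longer stretch. Bins at least 10 points lower in DKO1 formed an unbroken run of 22 bins from 105840001 to 107600000 on chromosome 4, or 1.76 Mb, with a mean share of 46.2% in HCT116 and 27.0% in DKO1. The run was bounded by this difference, so a lower DKO1 mean inside it follows from that choice. Within the run an unbroken 15 bins (106000001 to 107200000) were at least 15 points lower. So was the separate bin at 1.265 Mb from the middle of TET2 (34.8% in HCT116, 19.4% in DKO1). That size was reached by 7.39% of all bins used and by 10.3% of the 3969 bins whose HCT116 share lay within the range of the TET2 window. At 10 points the latter share was 22.5% lower and 16.2% higher. Both lines peaked in the same bin, 106800001 to 106880000, at 60.2% in HCT116 and 35.4% in DKO1. On the low-coordinate side the HCT116 share had its minimum at 105120001 to 105200000, where it was 7.19% and the DKO1 share was higher, at 13.4%. On the other side the minimum was at 107760001 to 107840000, with 16.5% in HCT116 and 11.9% in DKO1. These are the minima of HCT116, and those of DKO1 lay elsewhere, at 10.4% in the bin at -0.575 Mb from the middle of TET2 and at 9.42% in the bin at 1.505 Mb.

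**Figure D3:**
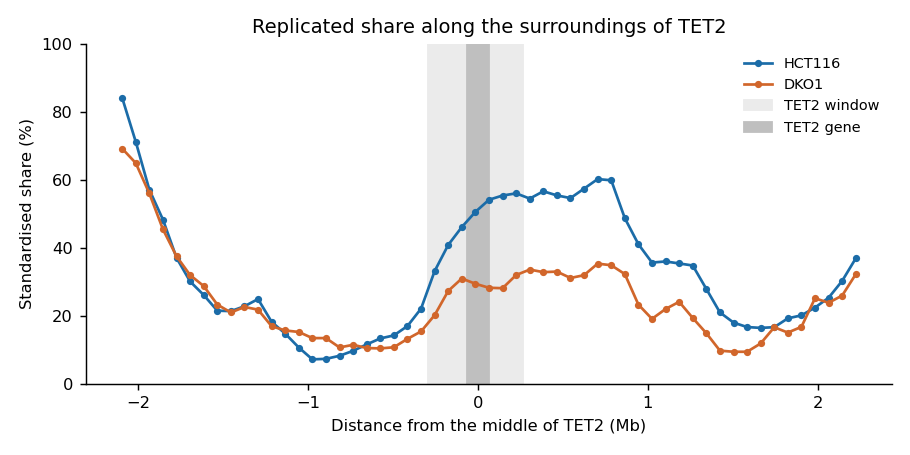
Standardised replicated share (%) of each 80 kb bin against its distance from the middle of TET2 in Mb, for HCT116 (blue) and DKO1 (orange), with the window of the locus and the gene shaded. DKO1 lies below HCT116 through the window and the plateau beside it, which peaks at 60.2% and 35.4%, and above it at the HCT116 low of 7.19% on the low-coordinate side.

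In single cells the window was often caught while part of it had been replicated. Of the cells with all 7 bins called, 107 of 313 HCT116 cells had replicated none of the window and 94 all of it, against 122 and 23 of 198 DKO1 cells. Bins of both codes were found in 112 HCT116 cells (35.8%) and 53 DKO1 cells (26.8%). Most of these cells, 82 and 45, had a single change of code along the window. The replicated side was then the high-coordinate side, toward the peak of the domain, in 80 of 82 HCT116 cells, or 97.6% (91.5 to 99.7%), and in 36 of 45 DKO1 cells, or 80% (65.4 to 90.4%). The opposite arrangement was seen in 2 HCT116 and 9 DKO1 cells, and the exact intervals of these shares did not overlap. These cells were not matched for progress, and the intervals cover counting error only. The cell lowest in progress with the whole window replicated was at 28.9% in HCT116 and 24.3% in DKO1, and the cell highest in progress with none of it replicated was at 69.5% and 74.7%.

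**Figure D4:**
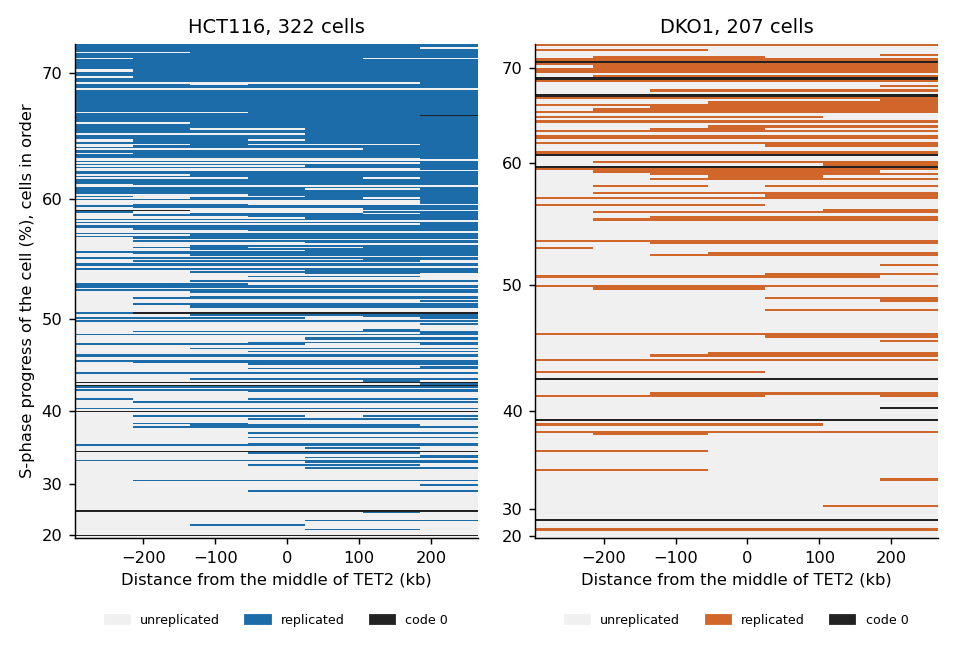
State of each bin of the TET2 window in every cell, with bins along the x axis (kb from the middle of TET2) and cells stacked in order of S-phase progress (%) on the y axis; colour is replicated, grey unreplicated and black code 0. Mostly replicated rows prevail in the upper part of the HCT116 panel. Wholly unreplicated rows are found up to 69.5% progress in HCT116 and up to 74.7% in DKO1.

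The order of TET2 and the early loci could be read within cells, where progress plays no part. Among HCT116 cells in which exactly 1 of TET2 and TET3 was replicated it was TET3 in 150 of 150 cells, and in DKO1 in 141 of 141. For TET1 against TET2 it was TET1 in 152 of 152 cells of HCT116 and in 142 of 145 of DKO1. For DNMT1 the early locus was the replicated one in 153 of 154 and 133 of 134 cells, and for UHRF1 in 153 of 154 and 135 of 137. For DNMT3A the counts were 147 of 151 and 138 of 139, and for DNMT3B 150 of 153 and 144 of 145. TET2 without the other gene was thus found in at most 4 cells per pair and line.

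Code 0 was uneven among the loci. At DNMT1 it was present in at least 1 bin of the window in 18 of 207 DKO1 cells, or 8.70% (5.24 to 13.4%), and covered all 7 bins in 15 of them. No HCT116 cell had it there, and 0 of 322 cells allows a share of up to 0.932% if 3 cells are taken as the limit, or 1.14% by the exact interval. At UHRF1 it was present in 14 DKO1 cells, or 6.76% (3.75 to 11.1%), and in no HCT116 cell of 322. At DNMT3B, the other gene knocked out, it was present in 1 DKO1 cell and 0 HCT116 cells. DNMT3A had code 0 in 8 DKO1 cells and 1 HCT116 cell, and TET3 in 5 and 1. TET1 had it in 1 DKO1 and 2 HCT116 cells. TET2 had it in 9 cells of each line, or 4.35% of DKO1 and 2.80% of HCT116 cells.

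**Figure D5:**
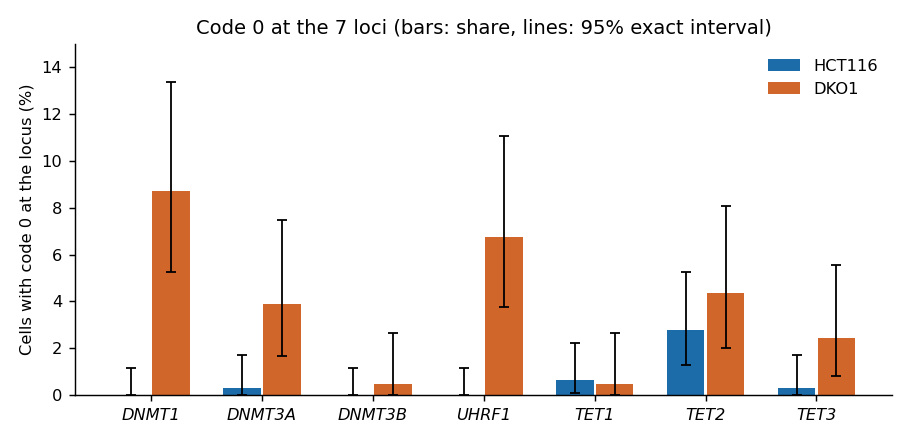
Percent of cells with code 0 in at least 1 bin of each of the 7 loci, for HCT116 (blue) and DKO1 (orange), with 95% exact intervals. The bars of DKO1 are highest at DNMT1 (8.70%) and UHRF1 (6.76%), where HCT116 has 0 cells.

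The code 0 at both chromosome 19 loci was largely in the same cells. All 14 DKO1 cells with code 0 at UHRF1 also had it at DNMT1, in 6 of them as a single run of table bins and in 8 as separate runs, and 4 more cells had it at DNMT1 alone. The table used here holds no bin from 6960001 to 9040000 on this chromosome, so run lengths count table bins only. The runs around DNMT1 covered 0.48 to 7.28 Mb of bins, with a median of 3.8 Mb, and had 11 different ends, the commonest at 13920000 in 5 cells. In 13 of the 18 cells the bins on both sides of the run were replicated, and in the other 5 the run began at the first table bin of the chromosome (4560001). The percent of DKO1 cells with code 0 was highest on chromosome 19 in the bin from 10080001 to 10160000, inside the DNMT1 window, and stayed at or above 5% from 9840001 to 11920000. Over the 26 bins of that stretch the mean was 7.90% in DKO1 and 0.0239% in HCT116, against 1.44 and 0.116% in the other used bins of the chromosome. The stretch was bounded by its DKO1 values, so a higher DKO1 mean inside it follows from that choice.

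Across the genome 6001 bins were never coded 0 in HCT116, and in them the median percent of DKO1 cells with code 0 was 0.966%. The DNMT1 bin at 10080001 was the only one of the 6001 to reach 8.70%, and 0.317% of them reached the 8.21% of the bin that overlaps the gene. At UHRF1 6.76%, the value of its highest bin, was reached by 2.65% of them, and the bin that overlaps the gene was at 6.28%. Over the 27636 bins called in at least 90% of HCT116 cells, 2.76% reached 8.70%, 3.35% reached 8.21% and 6.27% reached 6.76%. The 18 cells had code 0 in 1.17 to 5.32% of their bins, with a median of 2.66%, against 1.84% over all DKO1 cells, and none was among the 82 DKO1 cells in which code 0 took no more than 1% of bins. The part of this higher level of code 0 in the result was not tested. Counting code 0 as unreplicated gave DNMT1 a DKO1 share of 92.1% and a difference of -7.20 points, and UHRF1 a share of 91.7% and a difference of -7.75 points.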

How the data were processed

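Single-cell replication sequencing was deposited for S-phase cells of HCT116 and DKO1, made on a droplet copy-number system per the labels' protocols. The authors deposited state codes 0, 1 and 2 (another kind of number, with no unit) per 80 kb bin and cell, per the file headers 1 column per cell. Per the submitters' processing notes the tools included bedtools 2.26.0, SAMtools 1.10 and Cell Ranger, with GRCh37 (hg19) as the build. How deeply each cell was sequenced is unknown here, as are the settings of the model.

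The 7 genes and the comparisons were chosen with earlier results of these data known, and all 7 are named with values. A list of other methylation genes was not run, since no hg19 annotation was used. Neighbouring genes are those of RefSeq on GRCh38.p14.

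Shares, exact and Newcombe 95% intervals and logistic curves were computed with Python 3.11.15, numpy 2.4.6, pandas 2.3.3 and scipy 1.17.1, and checked on simulated data. A locus needed at least 50% of its bins called in a cell, and strata at least 5 cells of each line. Cells are not replicates, so no test was made. No doublet caller was run.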

Additional observations from a re-analysis of the deposited data

Results flagged for a closer look

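Code 0, which the shares leave out, was present at the DNMT1 locus in 8.7% of DKO1 cells and at the UHRF1 locus in 6.76%, while 0 of 322 HCT116 cells had it at either locus. It stands out because it lies outside the replicated and unreplicated states on which the comparison rests and exceeds the level in the HCT116 cells. Code 0 was more frequent in DKO1 as a whole, at 2.80% of calls against 1.08%. Of the 27636 bins called in at least 90% of HCT116 cells, 2.76% reached the DNMT1 value and 6.27% the UHRF1 value. That background counts single bins, whereas the 2 values are those of whole windows and equal the highest bin of each. The bin that overlaps the gene was at 8.21% at DNMT1, reached by 3.35% of the 27636 bins, and at 6.28% at UHRF1. DNMT1 is knocked out in DKO1 and UHRF1 is not, and DNMT3B, which is knocked out as well, had code 0 in 1 DKO1 cell. Any link between the knockouts and code 0 was not tested.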

How the results depend on the processing

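No paired analysis was possible because each line is 1 library, and for the same reason no library could be left out. The difference at TET2 kept its direction and a size past 10 points under all 13 alternatives. Of 93 alternative values of the 7 differences, 87 moved by less than counting error, 6 moved further and 0 reversed a called value. Only a difference past 10 points could count as reversed, which left TET2 alone. The sign was less stable at the early loci. It was negative in 8 of 13 alternatives at DNMT1 and 8 of 14 at DNMT3B. At DNMT3A, UHRF1 and TET3 it was negative in 12 of 13, and at TET1 in 13 of 14. With a locus called replicated only when all its called bins were, the shares were 93.9% in HCT116 at DNMT1 and 93.5% at UHRF1, 90.4% and 88.1% (HCT116, DKO1) at DNMT3B, 92.9% and 88.0% at TET1, 30.03% and 15.01% at TET2, and 87.1% in DKO1 at DNMT3A. The differences at DNMT1 and UHRF1 were then 3.23 and 1.40 points. Counting code 0 as unreplicated, which also lowers each cell's progress, gave 92.1% at DNMT1 and 91.7% at UHRF1 in DKO1 (differences -7.20 and -7.75) and 39.9% at TET2 in HCT116. With 5-point strata HCT116 was at 98.2% for DNMT3A and 99.6% for TET1, and DKO1 at 96.0% for TET1. These 2 settings held fewer cells, as strata under 5 cells of a line are left out. With code 0 as unreplicated HCT116 kept 302 cells at TET2, in place of 314. With 5-point strata it kept 304 at DNMT3A, in place of 319. The part of the lost cells in these shifts was not tested. In the cells in which code 0 took no more than 1% of bins, DNMT3A was at 99.3% and 100% (difference 0.75), TET1 and TET3 at 100% in both lines (difference 0 at TET1), and TET2 in DKO1 at 20.3%. The TET2 curve in those DKO1 cells reached 50% at 73.2% progress, above the 30 to 70% at which 77 of the 82 lay. Alternatives added after the data were seen gave, at 30 to 70% progress only, 97.9% and 96.3% for DNMT3A and 100% and 96.1% for TET1, and, without cells of an outlying chromosome, 96.7% and 95.8% for DNMT3A (difference -0.92). With bins that overlap a gene only, 3 of 13 bins were at least 10 points lower in DKO1. A filter at 99% of cells called gave no value for loci other than DNMT3B and TET1. The lowest and highest strata hold 11 and 10 DKO1 cells and limit the early and late ends.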
